A study of Mus musculus with 6 samples.

Results

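The forkhead genes encode transcription factors that share a winged-helix DNA-binding domain. DNA methylation was read at 39 of them, from Foxa1 to Foxs1, in male mouse germ cells. A gene was included when at least 3 cytosines in or within 1 kb of it were covered by 10 or more reads in all 6 libraries, which held for all 39 named forkhead genes and for 17342 protein-coding and listed genes in all. Methylation was measured by reduced representation bisulfite sequencing, in which a restriction digest selects CpG-rich fragments, bisulfite turns unmethylated cytosine into a base read as T, and methylated cytosine is still read as C. CSDS was sampled by 3 libraries of germ cells of defeated mice (CSDS, chronic social defeat stress, in which a mouse is repeatedly attacked by an aggressive one), set against 3 Control libraries. The strain, age and germ cell stage are not given in the sources used here, and neither is whether the libraries of a group came from separate animals, so p-values measure the spread between these libraries only. In DNA from many cells, a lower level in each cell and a different mix of cells cannot be told apart.

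Forkhead factors bind related sites in DNA, and several can open closed chromatin for other regulators. FoxA proteins act this way in the endoderm, FoxO proteins respond to insulin signalling, and FoxM1 drives mitotic genes. Many forkhead genes are developmental regulators whose starts lie in long CpG-rich, unmethylated DNA. In the mouse gonad FOXO1 maintains spermatogonial stem cells, FOXO3 holds primordial follicles dormant, and FOXL2 keeps ovarian granulosa cells from taking on a testis fate.

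Each gene was read in 2 pieces. The start is the window of 1 kb either side of the gene end with more listed cytosines, and the rest is the remaining gene with its 1 kb flanks. The start could be measured for 38 genes, on 22 to 281 cytosines and 1370 to 18097 reads per library. Foxn1, needed in thymus and hair epithelium, had no listed cytosine near either end. The rest could be measured for 34 genes, on 8 to 455 cytosines. Foxe3, Foxi1, Foxi3 and Foxk2 had no cytosine in the rest, and Foxj3 had 1. The chosen end was the 5′ boundary of the annotated gene in 23 of the 24 measured genes with a strand in the tables used here. Foxb2 was the exception, and over the series this held for 89.1% of 11669 genes. That boundary is not always the transcription start. At Foxn3, Foxa1 and Foxp1 the outermost RefSeq promoter start lay more than 1 kb inside the gene, and so in the rest, as it did at Foxb2. At Foxn4 it lay inside the gene but within the start window. The annotation gives no exons, so exonic and intronic cytosines were not separated.

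The promoters of 4 members show what was read. Each sequence below runs 5′ to 3′ on the gene's strand, from 250 bases before to 50 bases after the RefSeq start (GRCm38.p6), with capitals at the CpGs listed in all 6 libraries. Foxk2 and Foxo3 show the CpG-dense, unmethylated kind and Foxi1 the CpG-poor kind. The Foxa2 promoter printed here is not the only one annotated for that gene. It lies across the Foxa2 tiles named below and shares cytosines with them.
Foxk2: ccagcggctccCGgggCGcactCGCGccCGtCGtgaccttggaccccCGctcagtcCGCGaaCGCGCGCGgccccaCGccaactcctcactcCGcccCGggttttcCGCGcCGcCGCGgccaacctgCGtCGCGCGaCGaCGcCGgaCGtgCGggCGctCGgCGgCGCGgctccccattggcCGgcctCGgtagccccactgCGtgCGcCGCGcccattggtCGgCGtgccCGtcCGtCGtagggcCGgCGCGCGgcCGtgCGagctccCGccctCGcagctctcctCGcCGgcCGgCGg
Foxo3: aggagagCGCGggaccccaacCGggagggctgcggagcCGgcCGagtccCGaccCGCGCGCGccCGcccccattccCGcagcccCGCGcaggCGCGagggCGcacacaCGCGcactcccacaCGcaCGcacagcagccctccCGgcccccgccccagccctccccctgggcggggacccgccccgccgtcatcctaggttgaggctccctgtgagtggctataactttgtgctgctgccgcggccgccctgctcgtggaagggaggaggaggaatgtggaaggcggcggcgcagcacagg
Foxa2: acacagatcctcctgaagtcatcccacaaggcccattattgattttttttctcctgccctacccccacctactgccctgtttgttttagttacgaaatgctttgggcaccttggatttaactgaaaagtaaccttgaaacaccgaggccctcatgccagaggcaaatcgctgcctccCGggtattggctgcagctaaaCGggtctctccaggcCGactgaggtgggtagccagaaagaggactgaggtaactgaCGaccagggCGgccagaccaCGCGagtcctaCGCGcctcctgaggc
Foxi1: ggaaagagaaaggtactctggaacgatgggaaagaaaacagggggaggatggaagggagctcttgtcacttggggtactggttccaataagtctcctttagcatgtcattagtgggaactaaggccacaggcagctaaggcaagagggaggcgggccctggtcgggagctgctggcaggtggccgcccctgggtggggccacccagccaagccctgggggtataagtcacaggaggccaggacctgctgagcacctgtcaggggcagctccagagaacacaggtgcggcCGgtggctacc

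The Foxk2 promoter (chr11:121259737-121260036, plus strand) holds 59 CpGs, of which 58 were listed. Foxk2, a repressor tied to metabolism, had a promoter level of 9.69%, 4.95% and 4.81% in the CSDS libraries, against 8.39%, 8.89% and 7.84% in the Control libraries. The Foxo3 promoter (chr10:42276646-42276945, minus strand) holds 35 CpGs, of which 22 were listed, at 5.34%, 2.22% and 2.54% in CSDS and 6.08%, 5.89% and 6.77% in Control libraries. Both promoters stood under 10% in every library, and as deposited the groups overlapped at Foxk2 but not at Foxo3. Every Foxo3 promoter level lay under the share read as C at mitochondrial CpGs of its library, given below. Promoter levels here are uncorrected, and how often groups overlap over all promoters was not counted. The printed Foxa2 promoter (chr2:148046920-148047219, minus strand) holds 12 CpGs, of which 9 were listed. Its level was 13.6%, 7.08% and 7.99% in CSDS libraries, against 16.8%, 17.6% and 21.5% in Control libraries, which did not overlap. A further Foxa2 promoter (chr2:148045899-148046198) had 15.1%, 14.6% and 15.9% in CSDS and 17.4%, 15.8% and 17.3% in Control libraries. Groups overlapped there, at -1.69 points over 19 cytosines. Another (chr2:148045415-148045714) had no listed cytosine. The Foxi1 promoter (chr11:34208040-34208339, minus strand) holds 6 CpGs, of which only 1 was listed. Foxi1 drives ion transport genes in the inner ear and kidney, and its listed CpG stood at 65.5%, 52.4% and 57.5% in CSDS and 53.3%, 52.6% and 55.4% in Control libraries, on 67 to 85 reads. Over the 29 promoters found for 25 of the genes, the median was 23 CpGs in 300 bases, against 7 over all 32851 promoters of the table. All 564 listed cytosines in the member promoters fell on a CpG of the printed strand or its complement.

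The libraries did not differ by group alone. At CpGs of mitochondrial DNA, which is generally held to carry little methylation, 8.50%, 4.41% and 4.53% of reads showed C in CSDS replicates 1, 2 and 3, against 8.90%, 8.84% and 10.04% in the Control replicates. CSDS replicate 1 stood beside the Control libraries in this share, and CSDS replicates 2 and 3 stood lower. Each level was therefore also computed with its library's mitochondrial share taken as the share of unmethylated cytosines read as C, here called the corrected level. Between 2420308 and 3156788 cytosines were listed per library at a median coverage of 44 to 50 reads. Maternal imprint control regions averaged 9.60 to 16.1% in CSDS and 11.5 to 23.7% in Control libraries over 9 regions. Paternal ones, which sperm carry methylated, averaged 88.5 to 94.6% in CSDS and 88.1 to 97.5% in Control libraries over 3 regions. Starts of germline genes, methylated in many somatic tissues, had a median of 16.4% over 10 of 10 listed genes, with the widest difference at Tex19.1, 31.0 ± 4.82% in CSDS and 39.3 ± 3.51% in Control libraries (SD, n = 3 each). Among somatic markers, 4 of 4 Sertoli genes had a median start level of 12.04%, 3 of 4 Leydig genes 93.2%, and 1 of 2 blood genes 94.7%.

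The starts of the forkhead genes were unmethylated. Their median level over the 6 libraries was 9.93%, against 10.6% over all 14688 genes measured, and 36 of 38 stood under 20% (94.7%), against 84.3% of all genes. Foxk2 was lowest at 7.54%. Levels of 7.54 to 10.7% were found at the starts of the 7 broadly expressed members, and 8.77 to 9.53% at the 4 members known mainly from the brain, Foxp1, Foxp2, Foxp4 and Foxo6. The 3 FoxA genes lay between 10.2 and 13.9%. Foxd, Foxb and the other neural members lay between 8.75 and 12.6%.

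**Figure D1:**
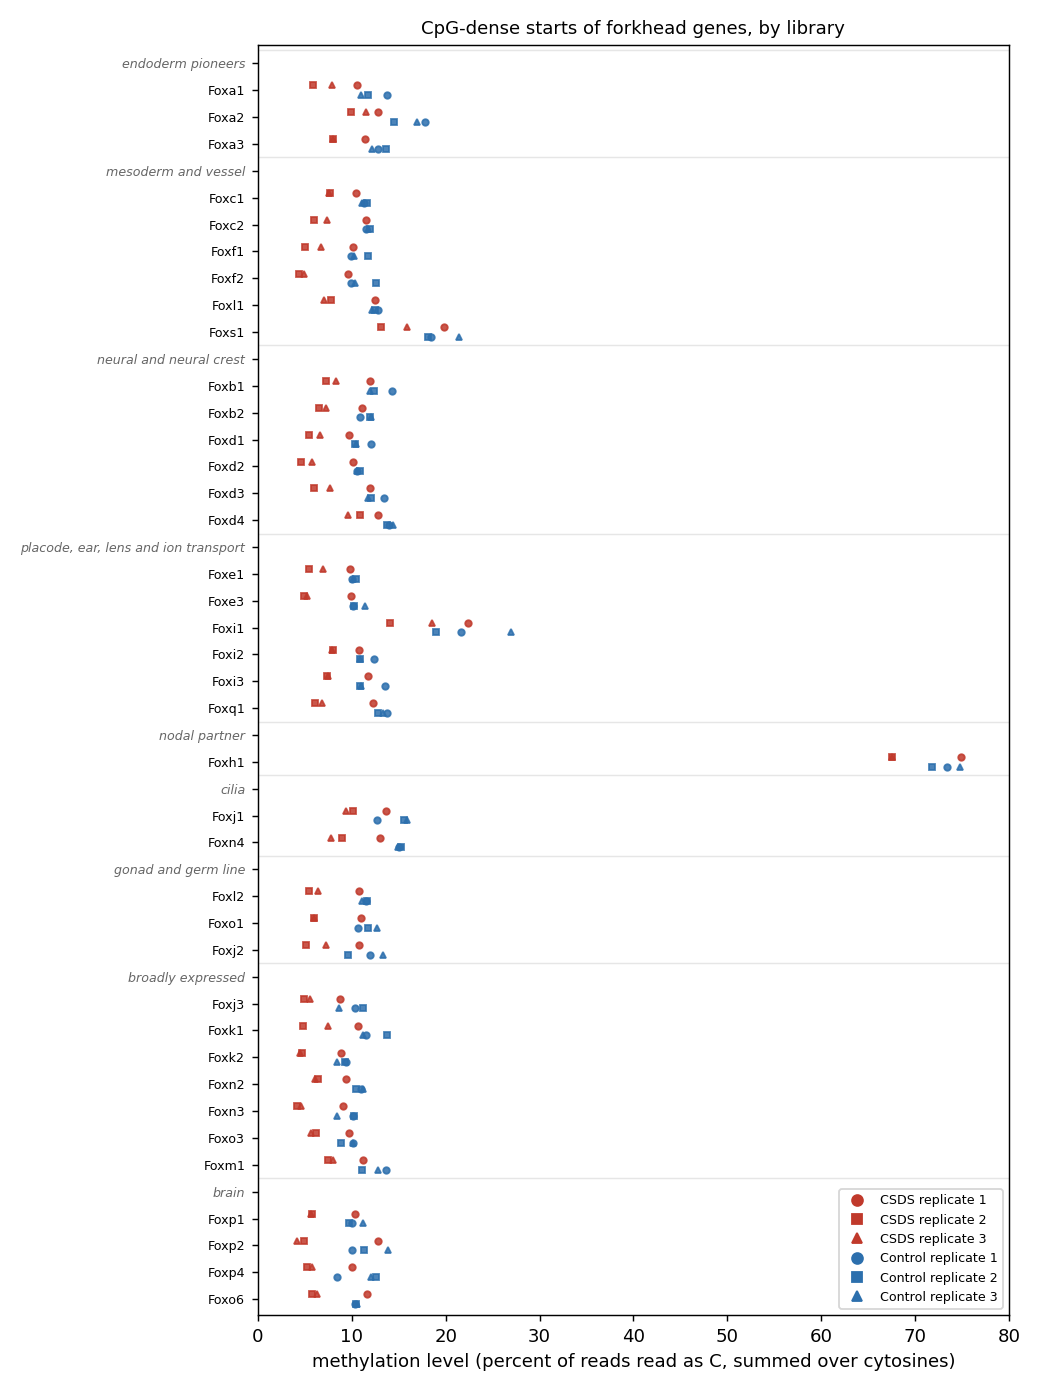
Methylation level of the start of 38 forkhead genes (horizontal axis, percent of reads showing C) in each of the 3 CSDS libraries (red) and 3 Control libraries (blue), with genes grouped by role. Most starts lie near 10%, Foxh1 stands apart at 71.7%, and CSDS replicates 2 and 3 lie below the other 4 libraries at all 38 genes.

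Foxh1 and Foxi1 were the exceptions at 20% or more. Foxh1, the DNA-binding partner of SMAD2 and SMAD3 in nodal signalling (chr15:76667829-76671614), stood at 74.9%, 67.5% and 67.5% in CSDS libraries, against 73.4%, 71.8% and 74.8% in Control libraries. The groups overlapped, with a difference of -3.35 points (SE 2.60, adjusted p = 0.273, limma-moderated quasi-binomial F test). The end with more cytosines (65 against 54) was the methylated one here. No strand was given for Foxh1, so whether this end or the other is its transcription start is not known here. The 56 cytosines of the rest, mostly at the other end of the gene, stood at 10.7%. The windows of Foxh1 also take in parts of Kifc2 and Ppp1r16a. Foxi1 (chr11:34204341-34208089) had 22.4%, 14.0% and 18.5% in CSDS libraries, against 21.6%, 18.9% and 26.9% in Control libraries, which overlapped. Its difference was -4.20 points (SE 3.37, adjusted p = 0.307, limma-moderated quasi-binomial F test). Next below them came Foxs1, a gene of vessel-associated cells, at 17.8%.

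All 38 starts had a lower mean in CSDS, as did 94.8% of all genes. After the mitochondrial correction 26 of 38 were lower (68.4%), against 62.7% of all genes. A correction by the share read as C at starts of broadly expressed genes left 22 of 38 lower (57.9%), against 54.4% of all genes. The median difference as deposited was -3.66 points, against -3.58 over all genes. Every CSDS library lay below every Control library at 17 of 38 starts (44.7%), against 40.1% of all starts. Without CSDS replicate 1 all 38 lay apart, against 85.5% of all starts, with a lowest adjusted p of 6.55e-06 (limma-moderated quasi-binomial F test). None of the 38 was called in that setting, where 1.45% of all starts were, since a call also needs 10 points and most forkhead starts stand near 10%. With all 6 libraries none of the 38 starts was called at an adjusted p under 0.05 with at least 10 points of difference, and 0% of all 14688 were. At an unadjusted p under 0.05 there were 24 of 38, against 39% of all starts. CSDS replicates 2 and 3 were the 2 lowest libraries at all 38 starts, while CSDS replicate 1 lay within the Control range at 19 of them. After the mitochondrial correction the median difference was -0.35 points, against -0.38 over all genes, and the groups did not overlap at 1 of 38 starts (2.63%), against 8.35% of all starts lower in CSDS and 2.93% higher.

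That 1 start was Foxn4, a regulator of retinal cell fate and, in Xenopus, of multiciliated cells (chr5:114254164-114274418), which also had the largest difference as deposited. Its level was 12.97%, 8.91% and 7.80% in CSDS libraries, against 15.03%, 15.3% and 14.97% in Control libraries. The groups did not overlap, at -5.20 points (SE 1.58, adjusted p = 0.121, limma-moderated quasi-binomial F test) as deposited and -2.09 points after correction. Foxa2, which specifies the node, floor plate and endoderm (chr2:148042877-148046969), had 12.8%, 9.96% and 11.6% in CSDS and 17.8%, 14.5% and 16.95% in Control libraries. CSDS libraries were all lower here, by a mean of 4.96 points (SE 1.296, adjusted p = 0.121, same test), and the corrected difference of -1.91 points came with overlapping groups.

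4 further starts complete the 6 largest differences. Foxq1, known for its role in hair (chr13:31558170-31560976), had 12.3%, 6.10% and 6.80% in CSDS and 13.8%, 12.8% and 13.3% in Control libraries, a difference of -4.89 points. Foxf2, a gene of gut and palate mesenchyme, had 9.64%, 4.42% and 4.91% in CSDS and 9.92%, 12.6% and 10.3% in Control libraries, a difference of -4.61 points. At Foxq1 and Foxf2 the groups did not overlap as deposited, although CSDS replicate 1 lay close to the lowest Control library. Foxk1, which like Foxk2 is tied to metabolism, had 10.7%, 4.83% and 7.44% in CSDS and 11.5%, 13.8% and 11.2% in Control libraries, a difference of -4.54 points with no overlap. Foxp2, required in motor and vocal circuits, had 12.8%, 4.96% and 4.20% in CSDS and 10.1%, 11.3% and 13.9% in Control libraries, and CSDS replicate 1 fell inside the Control range. Corrected differences of these 4 lay between -1.67 and -1.13 points and their groups overlapped. The smallest differences as deposited were at Foxo3 (-2.50 points), Foxo6 (-2.54) and Foxi2 (-2.54). Corrected, these 3 were higher in CSDS, by 0.99, 0.94 and 0.87 points.

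The unmethylated stretch at the start was long. It was measured as the run of 500 bp steps out from the gene end whose listed cytosines averaged under 20%, ended also by more than 1 kb without a listed cytosine. The median run was 2000 bp over the 38 genes and 1000 bp over all 14688 genes, on levels averaged over the libraries and not corrected. Measured in single libraries, the median over the 38 genes was 2000 bp in each CSDS library and 1750, 1750 and 1500 bp in Control replicates 1, 2 and 3. Runs of 4 kb or more were found at 4 of 38 forkhead genes (10.5%), against 0.579% of all genes. The longest were 5000 bp at Foxf1, a mesenchymal target of hedgehog signalling, 4500 bp at Foxa1, and 4000 bp at Foxb2 and Foxo3. Of the Foxf1 run 4000 bp lay outside the gene, and of the Foxo3 run 2000 bp lay inside it. The Foxb2 run was measured from the gene end opposite its annotated start. The Foxa1 run was measured from a point more than 1 kb upstream of its promoter start. Foxs1, Foxi1 and Foxh1 had no such step. At 1.75 kb into the gene, the forkhead genes with a listed cytosine there (18 genes) had a median level of 10.9% in CSDS and 14.8% in Control libraries, against 31.7% and 35.8% over 2136 genes of the series.

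**Figure D2:**
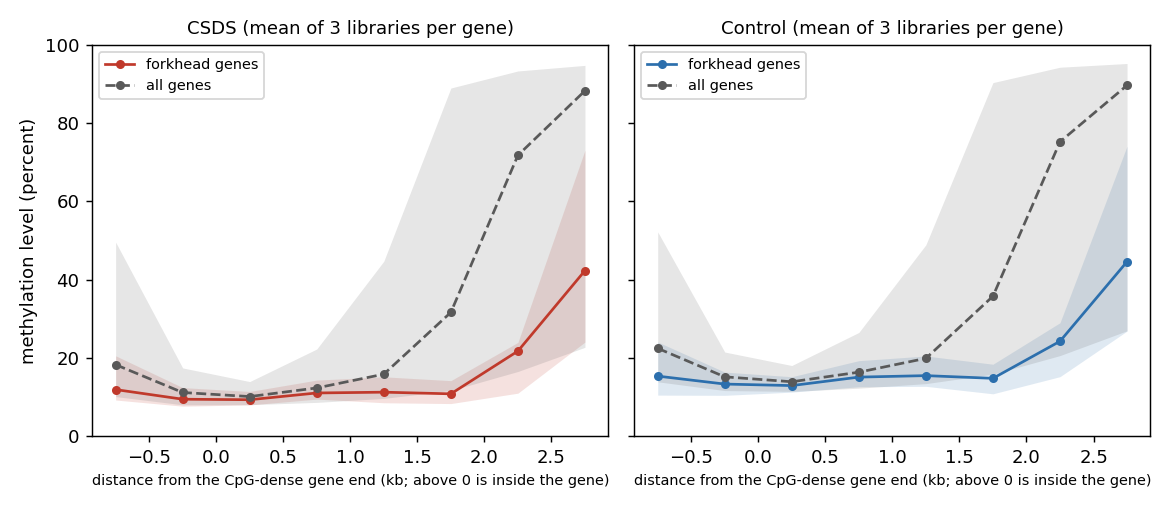
Median methylation level (vertical axis, percent) against distance from the gene end with more cytosines (horizontal axis, kb), for forkhead genes (coloured, solid) and all genes (grey, dashed) in CSDS (left) and Control libraries (right). Bands span the quartiles over genes; both sets stand near 10% at the start, and the all-gene median climbs sooner, to 71.7% in CSDS and 75.2% in Control libraries at 2.25 kb against 21.8% and 24.3% for the forkhead genes.

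3 groups of neighbouring forkhead genes were read together. Foxf1, Foxc2 and Foxl1 lie within 46.3 kb on chromosome 8, where 493 cytosines in the genes and their flanks averaged 11.5 ± 3.22% in CSDS and 14.6 ± 0.479% in Control libraries (SD, n = 3 each). The 257 cytosines between these genes averaged 25.4 ± 1.95% in CSDS and 28.0 ± 0.818% in Control libraries, and 72.4% of them stood under 20%. Foxq1, Foxf2 and Foxc1 lie within 252 kb on chromosome 13, at 9.48 ± 2.33% in CSDS and 12.9 ± 0.339% in Control libraries over 801 cytosines. Between them, 214 cytosines averaged 41.0 ± 2.46% in CSDS and 43.4 ± 0.910% in Control libraries. Foxd2 and Foxe3 lie within 19.8 kb on chromosome 4, at 9.30 ± 3.14% in CSDS and 12.9 ± 0.203% in Control libraries over 537 cytosines. In each cluster the CSDS libraries spread more widely than the Control libraries, as they did over all starts of the series. There the library medians were 11.7%, 6.90% and 7.52% in CSDS and 12.4%, 12.9% and 12.4% in Control libraries. Cluster levels are not corrected.

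The rest of the gene varied among members far more than the start. Its median was 13.6% over 34 forkhead genes, against 81.9% over 14172 genes, and 18 of 34 stood under 20% (52.9%), against 13.2% of all genes. Among genes under 6 kb, the 19 forkhead genes had a median of 10.96% with 16 under 20%, against a median of 38.4% and 37.0% under 20% over 1418 genes. The 8 forkhead genes over 30 kb had a median of 58.0%, against 81.9% over 6848 genes. All 6 of Foxb1, Foxb2, Foxd1, Foxd2, Foxd3 and Foxd4, neural and neural crest genes, stood between 8.12 and 12.2% over the pooled rest. The rests of Foxb2, Foxa1, Foxn3 and Foxp1 take in the outermost annotated promoter start of the gene. At the other end stood Foxm1, the mitotic regulator, at 94.9%, Foxk1 at 94.7% and Foxn4 at 94.2%, each with a start under 20%.

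**Figure D3:**
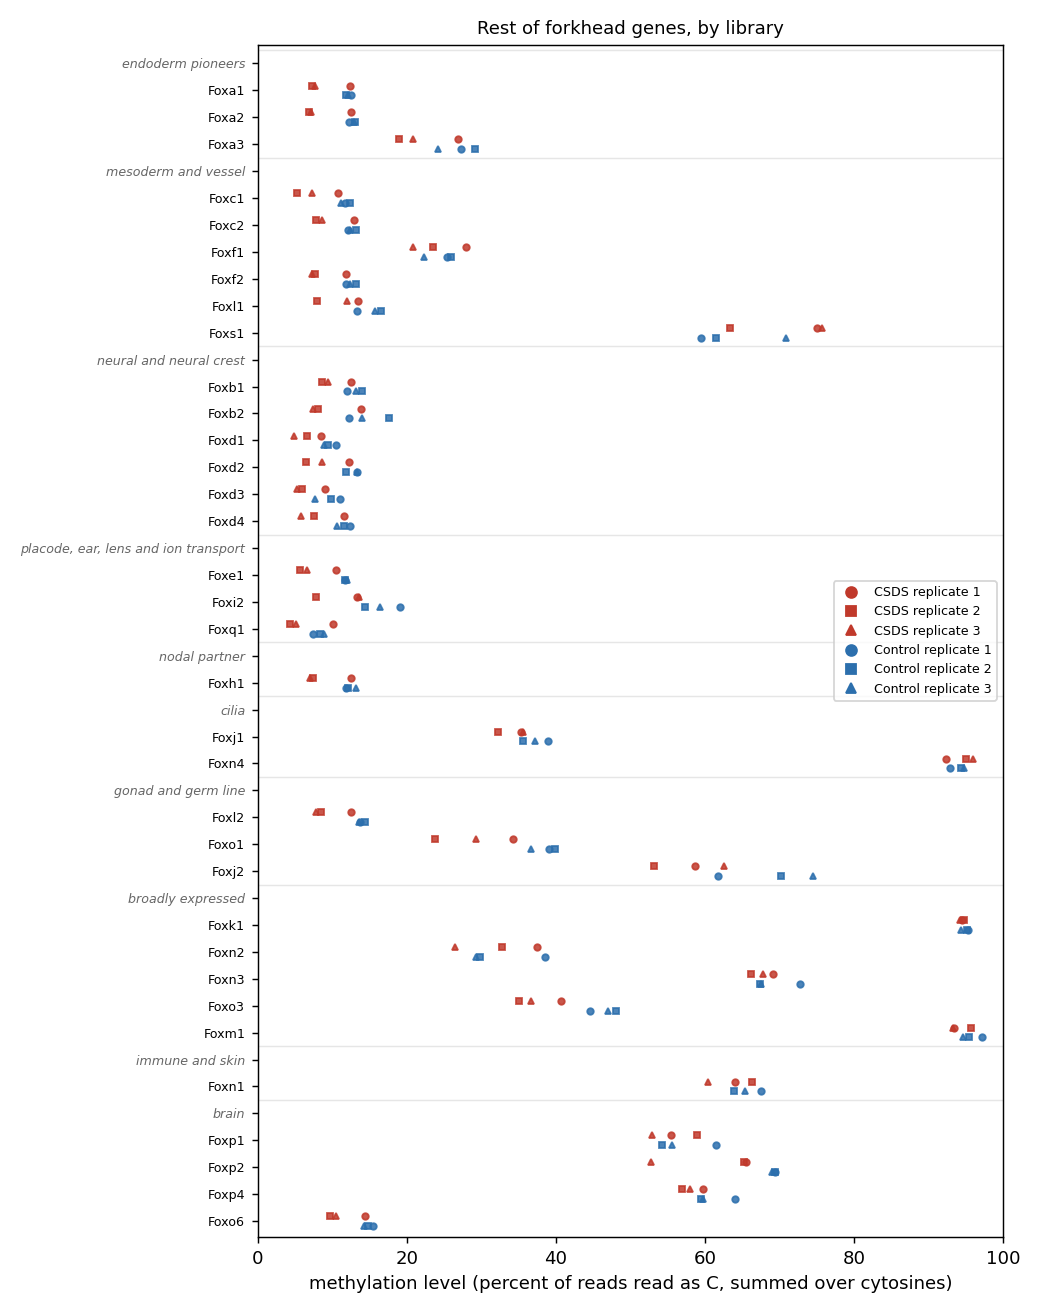
Methylation level of the rest of 34 forkhead genes (horizontal axis, percent of reads showing C) in the 3 CSDS libraries (red) and 3 Control libraries (blue), grouped by role. Levels run from 7.35% at Foxq1 to 94.9% at Foxm1, and the groups lie apart at 8 genes, Foxo1, Foxo3 and Foxp2 among them.

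Most rests were lower in CSDS, 32 of 34, against 79.7% of all genes. After the mitochondrial correction 22 of 34 were lower (64.7%), against 67.4% of all genes, and after the correction by broadly expressed genes 19 of 34 (55.9%), against 65.9%. The median difference was -3.13 points, against -1.86 over all genes, and -0.36 against -0.80 after the mitochondrial correction. Groups lay apart with CSDS lower at 8 of 34 (23.5%), against 25.5% of all rests. None of the 34 was called and 0% of all 14172 were, while 12 of 34 had an unadjusted p under 0.05, against 23.1% of all. Corrected groups lay apart at 4 genes, Foxo1, Foxo3 and Foxp2 lower in CSDS and Foxq1 higher. The corrected Foxq1 level was negative in every Control library and in CSDS replicate 2, its level there lying under the mitochondrial share. Over all rests, 15.1% lay apart lower and 2.55% higher after correction.

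Foxo3 (chr10:42181845-42276695) had the lowest adjusted p of the 34 rests. Its 176 cytosines stood at 40.7%, 35.1% and 36.7% in CSDS libraries, against 44.6%, 48.1% and 46.9% in Control libraries. All CSDS libraries lay below all Control libraries, at -9.08 points (SE 1.95, adjusted p = 0.111, limma-moderated quasi-binomial F test) as deposited and -7.46 points corrected. Foxo1 (chr3:52268337-52350109) had 34.3%, 23.8% and 29.3% over 96 cytosines in CSDS libraries, against 39.0%, 39.8% and 36.7% in Control libraries. These groups also lay apart, at -9.39 points (SE 3.18, adjusted p = 0.134, same test) and -7.43 points corrected. Without CSDS replicate 1 both genes were called, Foxo1 at -11.97 points (adjusted p = 0.00683, limma-moderated quasi-binomial F test) and Foxo3 at -10.7 points (adjusted p = 0.00284), 2 of 34 rests (5.88%) where 4.13% of all rests were called. With the mitochondrial correction as well, none of the 34 rests was called without CSDS replicate 1, and 0% of all rests were. The lowest adjusted p of the 34 was then 0.1525 (limma's moderated test on corrected levels). The test changed along with the correction, so the loss of both calls cannot be put down to the correction alone.

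Foxj2, expressed in meiotic germ cells of the mouse (chr6:122820184-122845366), had 58.6%, 53.1% and 62.5% over 29 cytosines in CSDS libraries, against 61.7%, 70.2% and 74.4% in Control libraries. CSDS replicate 3 overlapped the lowest Control library, and the difference was -10.7 points (SE 4.63, adjusted p = 0.172, limma-moderated quasi-binomial F test). Foxp2 (chr6:14901349-15441977) had 65.5%, 65.2% and 52.8% over 24 cytosines in CSDS libraries, against 69.3%, 69.4% and 69.0% in Control libraries. All CSDS libraries were lower, at -8.12 points (SE 4.18, adjusted p = 0.217, same test), which came to -3.94 points without CSDS replicate 3.

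These 4 differences shrank or turned when every cytosine counted equally instead of every read. Foxo3 then averaged 45.2 ± 2.91% in CSDS and 47.3 ± 1.10% in Control libraries, and Foxo1 33.0 ± 3.71% in CSDS and 35.3 ± 0.546% in Control libraries (SD, n = 3 each), with overlapping groups at both. Foxj2 averaged 69.8 ± 1.25% in CSDS and 69.1 ± 1.10% in Control libraries, a difference of +0.71 points. Foxp2 averaged 61.9 ± 2.32% in CSDS and 66.1 ± 1.15% in Control libraries, with the groups still apart as deposited. After the mitochondrial correction the equally weighted differences were -0.12 points at Foxo3, 0.30 at Foxo1, 2.01 at Foxj2 and -3.13 at Foxp2, and all 4 overlapped. Over the 34 rests, equal weighting left CSDS lower with groups apart at 9 genes (26.5%), against 23.9% of all rests. Once corrected, 2 lay apart lower (5.88%), Foxk1 and Foxl2, against 10.3% of all rests, and 1 higher, Foxq1, against 2.5%.

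The reads themselves were placed differently in these genes. At Foxo3, 36.1%, 36.6% and 36.1% of reads in CSDS libraries fell on cytosines over 50% methylated, against 44.0%, 44.4% and 46.2% in Control libraries. The share was 27.6%, 23.0% and 26.3% in CSDS and 34.7%, 35.5% and 30.5% in Control libraries at Foxo1. CSDS replicate 1 lay with the other CSDS libraries in both genes, which it did not in the mitochondrial share. At Foxj2 the share averaged 59.3% in CSDS and 72.8% in Control libraries, and at Foxp2 62.1% in CSDS and 69.6% in Control libraries. It lay lower in every CSDS library at 7 of 34 rests (20.6%), against 12.4% of all rests. Over all cytosines of the series it was 34.2 to 34.8% in CSDS and 34.5 to 39.7% in Control libraries. Within the cytosines over 50%, the equally weighted level differed by -1.51 points at Foxo3, -1.66 at Foxo1, -2.11 at Foxp2 and +3.13 at Foxj2. At the cytosines of 50% or under it differed by -2.68, -2.44, -7.78 and -5.62 points in the same genes as deposited, with groups apart at Foxp2 and overlapping at the other three.

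**Figure D4:**
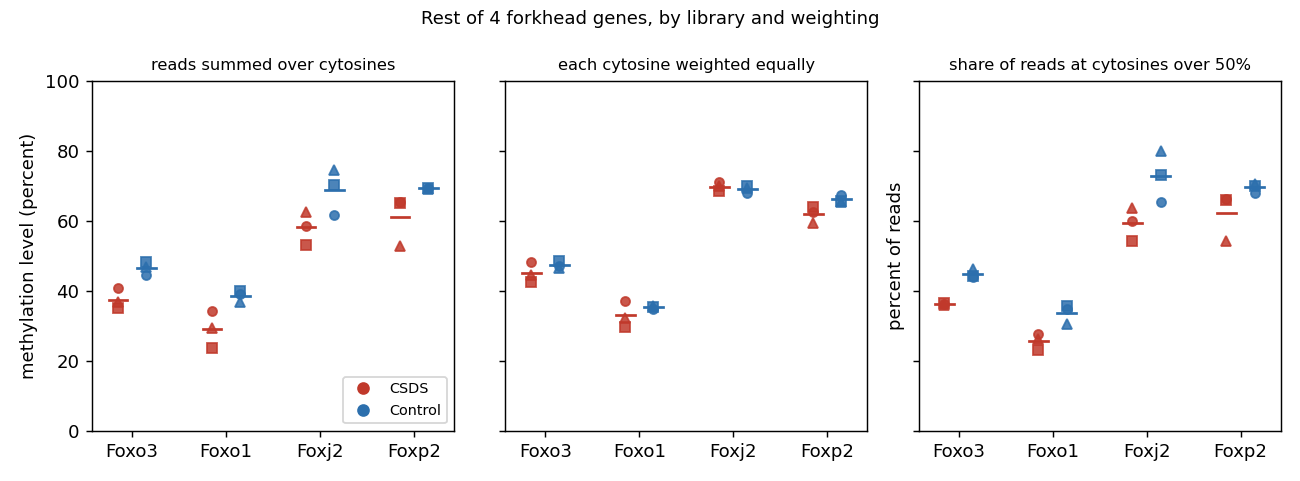
Rest of Foxo3, Foxo1, Foxj2 and Foxp2 in each CSDS (red, left) and Control library (blue, right), with bars at the group means. Left, level with reads summed over cytosines; middle, level with each cytosine weighted equally; right, percent of reads at cytosines over 50% methylated. The gaps of the left panel recur in the right panel and are narrower in the middle panel, where Foxj2 overlaps at 69.8% in CSDS and 69.1% in Control libraries.

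3 other rests belong to the largest differences. Foxs1 (chr2:152931898-152933208) was higher in CSDS, at 75%, 63.3% and 75.7% in CSDS and 59.5%, 61.5% and 70.8% in Control libraries, on 8 cytosines. Groups overlapped, with +7.42 points (SE 5.33, adjusted p = 0.454, limma-moderated quasi-binomial F test) as deposited and +9.35 corrected. Foxi2 had 13.3%, 7.84% and 13.6% in CSDS and 19.12%, 14.3% and 16.4% in Control libraries, a difference of -5.01 points with no overlap, and -1.96 points corrected with overlap. Foxf1 had 27.9%, 23.5% and 20.8% in CSDS and 25.3%, 25.9% and 22.3% in Control libraries, on 15 cytosines. Its difference of -0.45 points became +2.61 after correction, with overlap both times. Foxl2, with 12.5%, 8.44% and 7.82% in CSDS and 13.7%, 14.4% and 13.5% in Control libraries, lay apart as deposited but overlapped after correction. With equal weighting and correction Foxl2 lay apart, at -2.49 points. Foxq1 had 10.03%, 4.37% and 5.14% in CSDS and 7.39%, 8.30% and 8.87% in Control libraries, with overlap as deposited and a corrected difference of +1.94 points. Its corrected levels were 1.67%, -0.040% and 0.64% in CSDS and -1.66%, -0.59% and -1.30% in Control libraries, values that a methylation level cannot take where negative.

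Tiles of 500 bp resolved shorter stretches. The 366 forkhead tiles with 3 or more cytosines fell into 192 under 20%, 146 over 80% and 28 between. Groups lay apart with CSDS lower at 89 of 366 tiles (24.3%), against 16.3% of all 162813 tiles, and after the mitochondrial correction at 24 (6.56%), against 7.46%. Corrected tiles lay apart with CSDS higher at 17 (4.64%), against 3.52% of all tiles. None of the 366 was called and 0% of all tiles were, while 114 had an unadjusted p under 0.05, against 15.6% of all tiles. Without CSDS replicate 1, 6 of 366 tiles were called (1.64%), against 1.48% of all tiles. These were 2 tiles at Foxa2 and 1 each at Foxp2, Foxp1, Foxl2 and Foxo3. With the mitochondrial correction as well none was called, and 0% of all tiles were. The lowest adjusted p of the 366 was then 0.751 (limma's moderated test on corrected levels). Here too the test changed along with the correction.

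The 5 forkhead tiles of smallest unadjusted p among those with groups apart lay at gene starts. The tile at Foxa2 (chr2:148046500-148046999) had 11.99%, 6.36% and 7.83% over 20 cytosines in CSDS libraries, against 15.5%, 16.1% and 20.6% in Control libraries. Groups were apart at -8.66 points (SE 2.32, adjusted p = 0.174, limma-moderated quasi-binomial F test), and also at -5.87 points after correction. The tile at Foxk2 (chr11:121260500-121260999) had 11.2%, 11.1% and 7.11% in CSDS and 17.4%, 16.0% and 18.9% in Control libraries, apart at -7.66 points and at -4.82 corrected. At Foxp1, a brain and lung regulator (chr6:99522000-99522499), the tile had 8.70%, 5.68% and 5.79% in CSDS and 12.7%, 11.01% and 12.6% in Control libraries, apart at -5.38 points and at -2.18 corrected. Tiles at Foxn2 (-4.60 points) and Foxj3 (-5.37 points) were apart as deposited and overlapped after correction.

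A pair of further tiles was chosen after their values were seen, as the largest corrected differences with an unadjusted p under 0.01 and groups apart. Inside Foxp2, 46.9 kb from its start (chr6:14948000-14948499), a tile of 9 cytosines had 20.9%, 23.3% and 19.8% in CSDS libraries, against 30.6%, 30% and 34.1% in Control libraries. CSDS replicate 1 lay with the other CSDS libraries, at -10.3 points (SE 1.65, adjusted p = 0.1803, limma-moderated quasi-binomial F test) as deposited and -8.21 points corrected. With equal weighting the Foxp2 tile differed by -10.3 points, and by -8.23 points corrected, with groups apart both times. Just outside the Foxa2 start (chr2:148047000-148047499), a tile of 10 cytosines had 18.3%, 13.4% and 15.5% in CSDS libraries, against 24.3%, 24.9% and 27.4% in Control libraries. It lay apart at -9.82 points (SE 1.70, adjusted p = 0.174, same test) as deposited, -7.43 points corrected, and -4.76 points corrected with equal weighting. The tiles at Foxa2 and Foxk2 named above also lay apart with equal weighting and correction, at -4.45 and -5.54 points. With 3 libraries against 3, an exact two-sided permutation test of any single difference cannot go below p = 0.1.

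**Figure D5:**
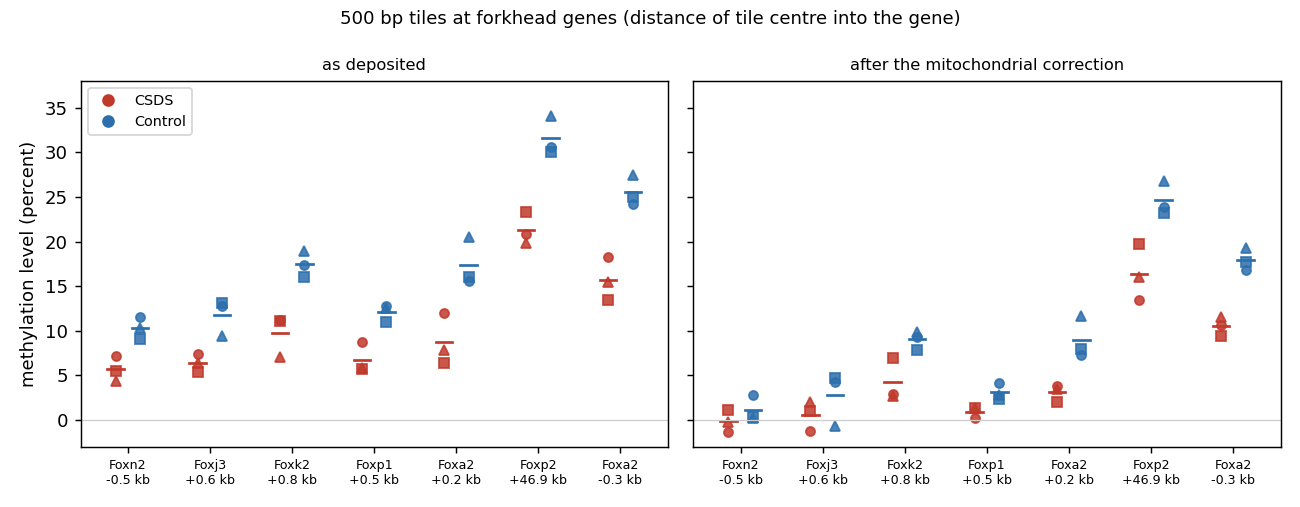
Methylation level (percent) of 7 tiles of 500 bp at forkhead genes in each CSDS (red, left) and Control library (blue, right), as deposited (left panel) and after the mitochondrial correction (right panel), with bars at the group means. Labels give the distance of the tile centre into the gene. The Foxp2 and Foxa2 tiles at the right, at -8.21 and -7.43 points corrected, were chosen after their values were seen for groups apart in both panels.

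Genes around the forkhead factors were read from fixed pathway lists. None of the measured genes of these lists was called at the start or in the rest (0% of all genes were). Over all genes, 94.8% of starts and 79.7% of rests had a lower mean in CSDS. Levels of single genes in these lists are as deposited, with reads summed over cytosines. They are not given here with correction or equal weighting, under which the rests of Foxo3, Foxo1 and Foxj2 differed less or turned. Of the insulin and AKT genes upstream of FoxO, 12 of 13 starts were lower in CSDS, 5 with groups apart (all starts, 40.1%), and the median difference was -3.74 points. Corrected, the median was -0.47 points and 1 lay apart (all starts, 11.3%). Insr, the insulin receptor, averaged 9.31 ± 2.60% in CSDS and 14.3 ± 2.12% in Control starts (SD, n = 3 each). Sgk1, a kinase that phosphorylates FoxO, averaged 10.2 ± 1.42% in CSDS and 15.1 ± 2.91% in Control starts. Both lay apart as deposited. In the rests of this list 13 of 14 were lower in CSDS, Insr at 58.5 ± 3.07% in CSDS and 63.7 ± 4.67% in Control libraries and Sgk1 at 29.0 ± 1.81% in CSDS and 33.7 ± 2.03% in Control libraries.

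Among FoxO targets, 11 of 12 starts were lower in CSDS and 8 lay apart (all starts, 40.1%), with a median difference of -3.85 points. Corrected, the median was -0.55 points and 1 lay apart (all starts, 11.3%). Sod2, the mitochondrial superoxide dismutase, averaged 8.88 ± 2.55% in CSDS and 14.8 ± 1.55% in Control starts, and Fbxo32, a ubiquitin ligase of muscle wasting, 6.87 ± 3.28% in CSDS and 12.3 ± 2.06% in Control starts. In the rests, Ccnd2, cyclin D2, averaged 45.2 ± 5.27% in CSDS and 56.6 ± 3.61% in Control libraries. Gadd45a, a stress-response gene, averaged 53.0 ± 4.50% in CSDS and 61.8 ± 2.22% in Control rests. Both rests lay apart, and 4 of 11 target rests did so after correction, against 15.1% of all rests lower and 2.55% higher.

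Of the FOXH1 and nodal genes, 9 of 10 starts were lower in CSDS, 6 with groups apart (all starts, 40.1%). Corrected, the median difference was +0.28 points and none lay apart (all starts, 11.3%). Nodal itself averaged 9.42 ± 2.44% in CSDS and 15.6 ± 3.995% in Control starts, and Lefty1, its inhibitor, 85.9 ± 7.06% in CSDS and 91.9 ± 0.424% in Control starts, both with overlap. The rest of Smad4, the shared SMAD, averaged 65.6 ± 3.41% in CSDS and 75.1 ± 1.27% in Control libraries, apart at -9.43 points (adjusted p = 0.114, limma-moderated quasi-binomial F test). Acvr2a, an activin receptor, averaged 42.7 ± 3.699% in CSDS and 50.1 ± 4.87% in Control rests. Corrected, the median difference over the 11 nodal rests was -1.56 points and 4 lay apart (all rests, 17.7%). All 7 FOXM1 target starts were lower, Aurkb at 9.995 ± 2.33% in CSDS and 16.6 ± 2.08% in Control starts and Cenpf at 7.87 ± 1.76% in CSDS and 12.4 ± 0.517% in Control starts. All 7 starts of cilia genes tied to FOXJ1 were lower (all starts, 94.8%) and 1 lay apart (all starts, 40.1%). Ccdc39 averaged 8.95 ± 4.91% in CSDS and 13.7 ± 0.154% in Control starts, and Dnah5 12.1 ± 3.07% in CSDS and 16.3 ± 1.95% in Control starts. In the rests of the FOXM1 targets 3 of 6 were lower, with Birc5 at 96.1 ± 2.01% in CSDS and 94.1 ± 2.28% in Control libraries and Aurka at 95.3 ± 2.05% in CSDS and 97.1 ± 1.38% in Control libraries. Among cilia genes, Mcidas, a switch for multiciliated cells, was higher in CSDS, at 34.4 ± 4.60% in CSDS and 27.2 ± 3.86% in Control libraries with overlap, while Rfx2, which acts in spermatid and ciliary programmes, averaged 26.4 ± 1.49% in CSDS and 33.3 ± 3.12% in Control rests and lay apart.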

How the data were processed

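For 3 CSDS and 3 Control libraries, the submitters' processing notes name Trim Galore 0.5.0, Bismark 0.20.0 and the build GRCm38. Per the file headers, the deposited tables give each cytosine's coverage as a count of reads, with the percent read as C or T. Percent times coverage was whole to within 1e-06. Of 3348459 cytosines, 2210988 were in all 6 libraries at a coverage of 10 or more, and 2206320 remained after a cap at the 99.9 percentile of coverage. Reads were summed per window and fitted by group in a quasi-binomial logit model, with a floor of 1 on the dispersion from limma's squeezeVar, an F test and Benjamini-Hochberg adjustment over all genes or tiles. The code was tested on simulated data. The corrected level is (level - s)/(1 - s), s being the share read as C at 27 mitochondrial cytosines. It is negative where the level lies under s. Corrected levels were tested by limma's moderated t-test, not by the quasi-binomial model. Replicate numbers did not pair the libraries. Members, pathway lists and alternatives were chosen with earlier results of these data known. Named members were those of the 6 largest differences, as deposited and corrected, starts of 20% or more, the longest and shortest unmethylated runs and the 5 tiles of smallest p with groups apart. Imprint bounds are approximate, and those of H19 were narrowed after its values were seen. Windows can overlap other genes. Coverage counts reads, not molecules. Promoter sequences and gene bounds come from RefSeq.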

Additional observations from a re-analysis of the deposited data

How the results depend on the processing

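No forkhead start, rest or tile was called at the other coverage minimum, without the coverage cap, with at least 5 cytosines, with limma on logit levels or after either correction, nor any start or rest with other windows, which were not run for tiles, although limma on logit levels called 50 starts over all genes. The replicate numbers pair nothing in the labels, and same-numbered libraries did not deviate together. A replicate block left 0 starts, 0 rests and 0 tiles called, with Foxo3's rest at an adjusted p of 0.0923 (limma-moderated quasi-binomial F test). After the mitochondrial correction the median difference was -0.35 points at starts, with groups apart at 1 (all starts, 11.3%), and -0.36 in rests, with groups apart at 4 (all rests, 17.7%). A correction by the share at starts of broadly expressed genes gave -0.089 points with 3 starts apart (all starts, 14.05%), and -0.24 points with 5 rests apart (all rests, 18.3%). Windows of 500 bp put groups apart in 18 rests, now of 38 genes (47.4%), against 31.6% of all rests. Equal weighting of cytosines with the mitochondrial correction, an alternative chosen after seeing the data, gave -0.26 points and 3 rests apart. The extent of the unmethylated start had a median of 2500 bp at a limit of 30% and 1500 bp in steps of 250 bp. After the mitochondrial correction 12 of 38 starts and 12 of 34 rests were higher in CSDS, where 0 and 2 were as deposited. Among rests given by library, the sign changed at Foxq1 (1.94 with the mitochondrial correction, 2.20 with equal weighting too), Foxj2's rest (0.71 with equal weighting, 2.01 with the mitochondrial correction too), Foxo1's rest (0.30 with both) and Foxf1's rest (2.61, 2.89 with the share of broadly expressed genes, and 1.25 with both equal weighting and the mitochondrial correction). The cause was not tested.

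Leaving out 1 library at a time gave 0 called starts, 0 to 2 called rests and 0 to 6 called tiles, the highest without CSDS replicate 1. Groups were then apart at 17 to 38 starts and 10 to 24 rests, the most without CSDS replicate 1, where 86.2% of all starts and 48.5% of all rests were, and the medians ran from -5.03 to -2.72 at starts and from -4.73 to -2.53 in rests. With the mitochondrial correction, added after seeing the data, the medians ran from -0.57 to -0.062 at starts and from -0.84 to -0.0030 in rests. Foxf1's rest ran from -2.35 to 1.16, or 1.02 to 3.77 corrected, and Foxi1's start from -6.24 to -1.99, or -3.10 to 0.76 corrected. The Foxp2 tile rests on 290 to 763 reads per library.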
